A study of Drosophila melanogaster with 24 samples.

Results

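The microRNAs dme-miR-279-3p, dme-miR-996-3p and dme-miR-286-3p of Drosophila melanogaster, written below without the species prefix, share a seed, the stretch from base 2 to base 8 that pairs with target messages. They were chosen by name as the rows of the deposited count table that carry these 3 mature products, 3 of 466 mature microRNAs listed and of the 329 with at least 1 count. Small RNA was sequenced from hemolymph, which is the blood of insects, and from body tissue of flies labelled male, and the labels name no strain, genotype or treatment. The 24 libraries fall into old hemolymph (25 days of age, n = 8), young hemolymph (2 days, n = 4), old body (25 days, n = 8) and young body (2 days, n = 4). The 8 old libraries of each compartment carry 2 description codes, 4 with the letter O and 4 with R. All young libraries carry the letter Y, and the labels do not say what O and R mean. The study asked which microRNAs circulate and whether their relation to tissue microRNAs shifts with age. Hemolymph RNA was taken with a kit for serum and plasma and body RNA with the standard kit of the same maker, so compartment and kit cannot be told apart. Whether each library had its own flies or pool is not stated in the labels, so p-values measure library-to-library spread only, and that spread may be technical.

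A microRNA guides an Argonaute protein to messages that match its seed, and microRNAs with 1 seed are expected to share many targets. The genes mir-279 and mir-996 are known from work on fly sense organs, where they hold back the formation of extra neurons, among them the neurons that sense carbon dioxide. Either of the sisters can supply the function that is missing when both are deleted. Background work also ties miR-279 to rest and activity rhythms and to limits on JAK/STAT signalling in the migrating border cells of the ovary. The mir-286 gene belongs to the mir-309 cluster of the early embryo, known for clearing maternal messages.

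In the Ensembl annotation of BDGP6, which uses dm6 coordinates, mir-279 lies at chr3R:29215585-29215684 and mir-996 at chr3R:29217184-29217280, both on the plus strand. The hairpins are 100 and 97 bases long and 1499 bases apart. Both lie inside the noncoding RNA gene lncRNA:CR31044 (chr3R:29214562-29219667), in an exon of 2 of its 3 annotated transcripts. The hairpin of mir-286 lies on another chromosome arm, 2R, in an exon of the noncoding RNA gene lncRNA:CR44504, together with the rest of the mir-309 cluster. Counts are of whole mature products, so levels of the members were set side by side with no length term.

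Total microRNA counts ran from 52792 to 120876 in old hemolymph, 56010 to 275974 in young hemolymph, 136692 to 230282 in old body, and 180182 to 242935 in young body. Among microRNAs that mark other tissues, the neuron microRNA miR-124-3p reached at most 8.27 CPM (counts per 1000000 microRNA counts of the library) in old hemolymph and had no count in the 4 young hemolymph libraries, against body levels of 75.1 to 157 CPM in old flies and 70.0 to 502 CPM in young flies. The muscle pair miR-1-3p with miR-133-3p summed to values that ran from 26.7 to 170.5 CPM in old hemolymph, 144 to 393 CPM in young hemolymph, 1530 to 2020.0 CPM in old body, and 2247 to 4472 CPM in its young counterpart. The 3 ovary microRNAs miR-318-3p, miR-989-3p and miR-994-5p were present although the flies are labelled male. Their sum ran from 19753 to 35788 CPM in old body and over a wider range, 2551 to 80276 CPM, in young body, and it reached 20197 CPM in old hemolymph library 4 but at most 3067 CPM in the other 7. By library, 1 to 4, it was 2551, 14957, 80276 and 69146 CPM in young body. In young hemolymph it was 23.6, 50.7, 1214 and 2152 CPM in the same order. Of the 6 testis microRNAs none had enough counts to be tested, and their sum ran from 0 to 152 CPM in old hemolymph, 17.9 to 82.4 CPM in young hemolymph, 119 to 198 CPM in old body and, without overlap, 53.4 to 86.0 CPM in young body. miR-10-5p, encoded among the homeotic genes, ran from 1911 to 7593 CPM in old hemolymph, 946 to 1728 CPM in young hemolymph, 50839 to 65520 CPM in old body, and 41880 to 75154 CPM in the young one.

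The sisters made up nearly all of the shared seed. Together with miR-286-3p they summed to 9948 ± 730 CPM in old hemolymph (SD, n = 8), 15475 ± 4543 CPM in young hemolymph (n = 4), 5706 ± 565 CPM in old body tissue (n = 8) and 4948 ± 855 CPM in that of young flies (n = 4). The pair gave 88.6% of that sum in young body library 3, where miR-286-3p was high, and at least 98.3% in every other library. By mean level, miR-279-3p ranked 20 among all mature microRNAs in old hemolymph, 15 in young hemolymph, 34 in old body, and 35 in young body. Its sister miR-996-3p ranked 32, 24, 46 and 56 in the same groups.

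**Figure D1:**
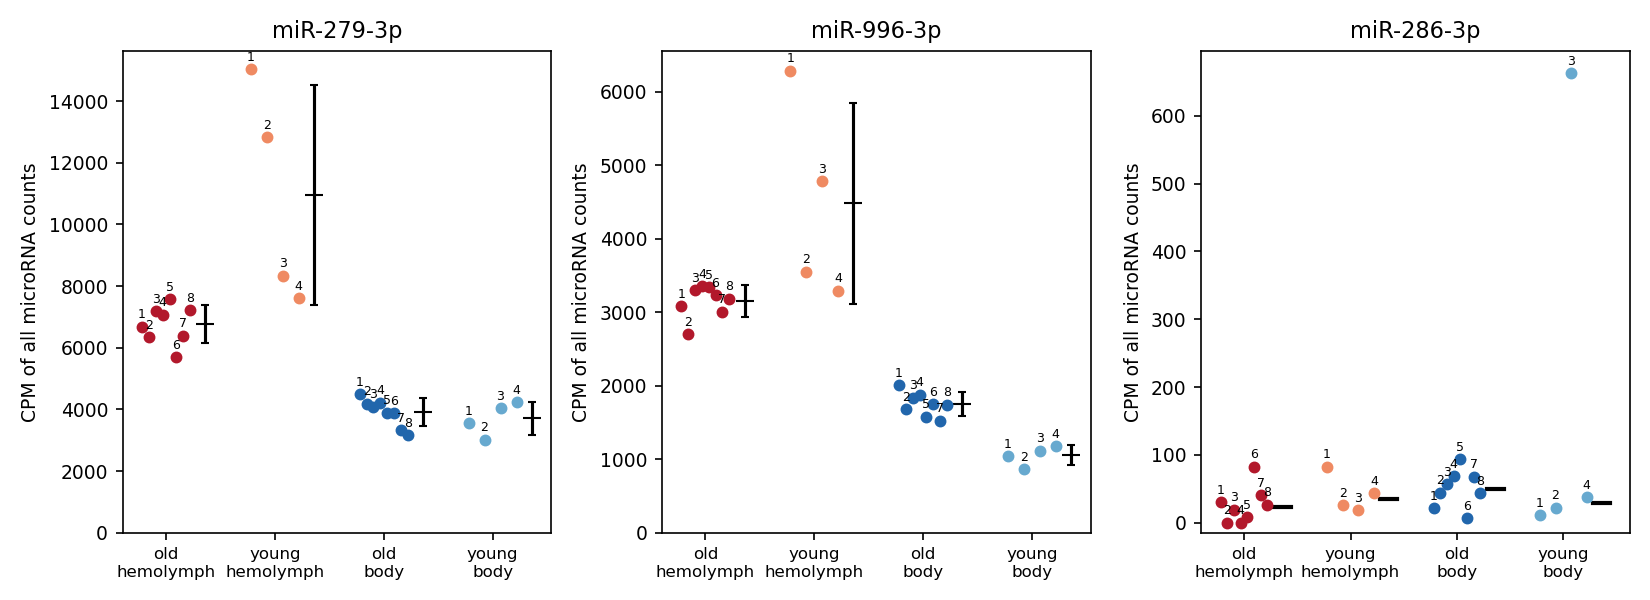
Level of each member in every library, in CPM of all microRNA counts, with the library number above each point. Black bars beside the sisters are the mean and SD of the group, and the black line beside miR-286-3p is the group median. Both sisters were highest in young hemolymph and lowest in body, and miR-286-3p stood at 663 CPM in young body library 3 and at most 93.5 CPM elsewhere.

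In old flies both sisters were higher in hemolymph than in body. miR-279-3p had a lowest, median and highest level of 5686, 6876 and 7586 CPM in old hemolymph, against 3168, 3991 and 4502 CPM in old body. miR-996-3p had 2704, 3205 and 3354 CPM in old hemolymph, against 1525, 1746 and 2008 CPM in old body. Every old hemolymph library was above every old body library for each sister. How many of all microRNAs separated the groups in this way was not counted, here or in the later comparisons. In such bulk samples a difference in the mix of cells and a difference in RNA per cell cannot be told apart. In edgeR's quasi-likelihood test over 24 libraries the log2 fold change was 0.69 ± 0.14 for miR-279-3p (SE, adjusted p = 0.000109) and 0.74 ± 0.13 for miR-996-3p (adjusted p = 1.88e-05). That is a 1.61-fold and a 1.67-fold difference. Of the 124 microRNAs tested, 82.3% were called in either direction and 36.3% were called higher (46% lower), so a call was common in this comparison. The median of all tested microRNAs was -0.45 under this scaling, and upper-quartile factors moved it by 0.48 and RLE factors by -0.27. The value of miR-279-3p went with it, to 1.18 and to 0.42, and with only the old libraries of the description code O it was 0.59 and no longer called (adjusted p = 0.0636, over all alternatives 1.99e-10 to 0.0636).

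The gap between hemolymph and body was also present in young flies. miR-279-3p stood at 15034, 12834, 8338 and 7611 CPM in young hemolymph libraries 1 to 4, against 3565, 3019, 4038 and 4227 CPM in young body. miR-996-3p stood at 6283, 3551, 4785 and 3293 CPM in young hemolymph, against 1046, 866, 1118 and 1177 CPM in young body. The lowest young hemolymph library was above the highest young body library for both sisters, a separation that was not counted over all microRNAs. Within young hemolymph, libraries 1 and 2 were the high ones for miR-279-3p and libraries 1 and 3 for miR-996-3p. The log2 fold change was 1.67 ± 0.20 for miR-279-3p (SE, adjusted p = 9.92e-08 in edgeR's quasi-likelihood test) and 2.18 ± 0.19 for miR-996-3p (adjusted p = 6.12e-10), or 3.19-fold and 4.52-fold. Here 73.4% of 124 microRNAs were called, 33.1% higher and 40.3% lower. Upper-quartile factors moved the median of all tested microRNAs, -0.26, by 0.57 and RLE factors by -0.52, and the sisters stayed higher in hemolymph under each. Without young libraries 1 and 2 of both compartments the difference of miR-279-3p was 0.90 and that of miR-996-3p 1.76, both still called.

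With age the sisters parted in body tissue. miR-996-3p was at 1525 to 2008 CPM in the 8 old body libraries and at 866 to 1177 CPM in the 4 young ones, with no overlap. Such separation was not counted over all microRNAs, so it is not read as particular to miR-996-3p. Its log2 fold change, higher in old body, was 0.69 ± 0.11 (SE, adjusted p = 0.000418 in edgeR's quasi-likelihood test over the 12 body libraries), a 1.62-fold difference. miR-279-3p, from the same noncoding RNA, was at 3168 to 4502 CPM in old body, against 3019 to 4227 CPM in young body, 2 ranges that overlap from 3168 to 4227 CPM. The log2 fold change of miR-279-3p was 0.03 ± 0.12 (adjusted p = 0.818), and its sign turned under several alternatives, which ran from -0.14 to 0.14. Of 115 microRNAs tested between the ages in body, 48.7% were called, 22 higher and 34 lower (13 and 35 with upper-quartile factors), so 19.1% were called higher as miR-996-3p was. Markers of other tissues also moved between the body groups. The testis sum was higher in old body without overlap, and the ovary sum ranged more widely in young body. miR-1-3p (-1.44 ± 0.26, edgeR adjusted p = 0.000639) and miR-124-3p (-1.28 ± 0.48, adjusted p = 0.042) were called lower in old body. The other muscle microRNA, miR-133-3p, was not called (-0.41 ± 0.18, edgeR adjusted p = 0.0779). The call of miR-124-3p was lost in 12 of 26 alternatives, and its value was 0.55 without young libraries 1 and 2. The part of these markers in the difference of miR-996-3p was not tested. With the 3 ovary microRNAs taken out before scaling, miR-996-3p was higher in old body by 0.53 and still called, and miR-279-3p stood at -0.13. Over all 26 alternatives miR-996-3p had values of 0.53 to 0.79 and adjusted p of 3.58e-08 to 0.0575, the highest with the replicate block.

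The share of miR-996-3p in the counts of the pair needs no scaling between libraries and showed the same parting. In old body its lowest, median and highest share was 28.7%, 30.9% and 35.5%, against 22.7%, 22.3%, 21.7% and 21.8% in young body libraries 1 to 4. The groups did not overlap, and the mean share was 31.0% ± 2.08 in old body (SD, n = 8), against 22.1% ± 0.465 in young body (n = 4). The difference of 8.93 percentage points had an exact permutation p of 0.00404 (two-sided, the smallest that 8 against 4 libraries can give) and an adjusted p of 0.0162 over 4 comparisons. With old libraries of only 1 code the groups still did not overlap, but 4 against 4 libraries cannot pass the adjusted threshold (8.23 points for code O and 9.62 for code R, adjusted p = 0.114 each, over all alternatives 0.0242 to 0.114).

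In hemolymph the share gave no such separation. It was 29.9% to 36.2% in old hemolymph, and 29.5%, 21.7%, 36.5% and 30.2% in young hemolymph libraries 1 to 4. Library 2, with a 95% Wilson interval of 20.5% to 22.9%, lay at the level of young body, and library 3, at 33.1% to 40.0%, had the highest share of the 24 libraries. Such intervals cover counting error only. The mean share was 31.8% ± 1.94 in old hemolymph and 29.5% ± 6.06 in young hemolymph (exact permutation p = 0.356, adjusted p = 0.463). The difference of 2.35 points was -0.25 without young hemolymph library 2 and 4.68 without library 3 (adjusted p = 0.945 and 0.0485), so those libraries decide it. Between the compartments the share differed by 0.76 points in old flies (31.8% in hemolymph, 31.0% in body, exact permutation p = 0.463, adjusted p = 0.463) and by 7.34 points in young flies (29.5% in hemolymph, 22.1% in body, exact permutation p = 0.143, adjusted p = 0.286). With 4 against 4 libraries the smallest p is 0.0286. Whether the age difference in share itself differed between hemolymph and body was not tested.

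**Figure D2:**
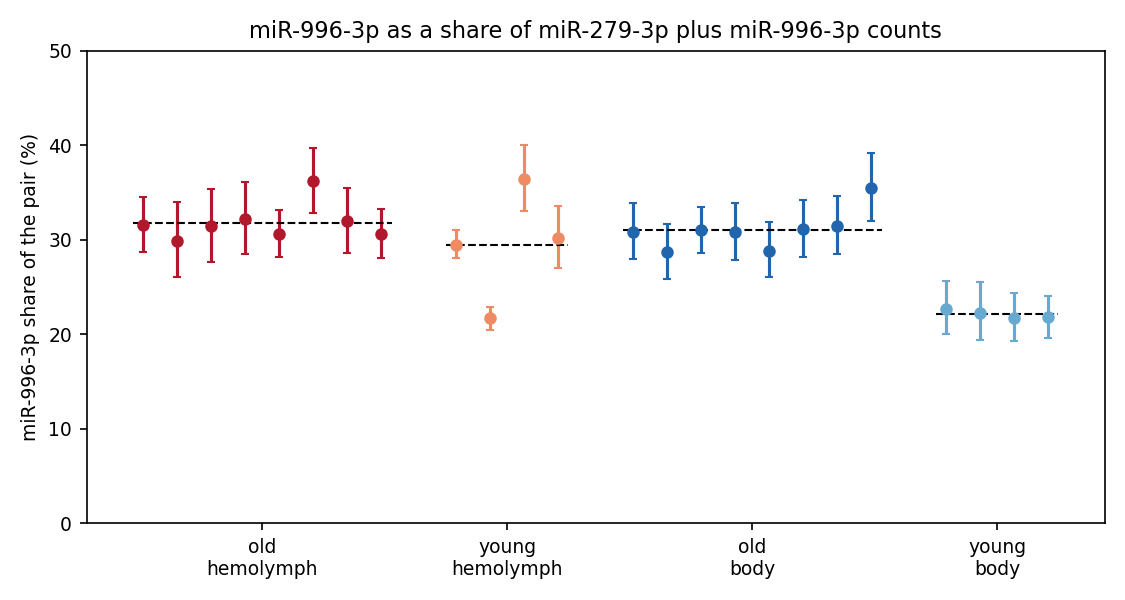
Share of miR-996-3p in the summed counts of miR-279-3p and miR-996-3p, in percent, for each library in the order of its number. Error bars are 95% Wilson intervals and dashed lines are group means. The 4 young body libraries lie at 21.7% to 22.7%, below all 8 old body libraries at 28.7% to 35.5%, and young hemolymph spans 21.7% to 36.5%.

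In hemolymph both sisters were lower in old flies. miR-279-3p was at 5686 to 7586 CPM in old hemolymph and at 7611 to 15034 CPM in young hemolymph, so the groups came close without overlapping. How common this is among all microRNAs was not counted. Its log2 fold change was -0.95 ± 0.20 (SE, adjusted p = 0.00188 in edgeR's quasi-likelihood test over the 12 hemolymph libraries), 1.94-fold lower in old hemolymph. miR-996-3p was at 2704 to 3354 CPM in old hemolymph and 3293 to 6283 CPM in young hemolymph, with young library 4 inside the old range. It was lower in old hemolymph by a log2 fold change of -0.75 ± 0.20 (adjusted p = 0.00688). Of 86 microRNAs tested, 46.5% were called and 27.9% were called lower. The split was 16 higher and 24 lower, and 20 and 19 when scaled by library size alone, which moved the median of all tested by 0.21. With only the R-coded old libraries neither sister was called (-0.68 and -0.45, adjusted p = 0.0952 and 0.206), and with upper-quartile factors miR-996-3p was not (-0.51, adjusted p = 0.107). Without young hemolymph library 2 neither sister was called (-0.54 each, adjusted p = 0.102 for miR-279-3p and 0.117 for miR-996-3p), and without library 3 miR-996-3p was not (-0.37, adjusted p = 0.268). Over all alternatives the sisters had adjusted p of 8.53e-06 to 0.102 and of 0.000424 to 0.268. Young hemolymph libraries 1 and 2 also held 169817 and 275974 counts, against 56010 and 69239 in libraries 3 and 4. Their ovary sums were 23.6 and 50.7 CPM, against 1214 and 2152 CPM in libraries 3 and 4. The part of depth or of ovary RNA in their levels was not tested. Among tissue markers, miR-1-3p was called lower in old hemolymph (-1.94 ± 0.48, edgeR adjusted p = 0.00469) and miR-10-5p higher (1.27 ± 0.35, adjusted p = 0.00832), and their part was not tested either. Without both of the deep libraries miR-279-3p was at -0.47 and miR-996-3p at -0.59, and both were called.

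The age difference in hemolymph was set against that in body in a single fit. The log2 age change in hemolymph minus that in body was -1.43 ± 0.23 for miR-996-3p (SE, edgeR adjusted p = 0.00012) and -0.99 ± 0.24 for miR-279-3p (adjusted p = 0.00781). Of 124 microRNAs 14.5% were called in this comparison, 6.45% higher and 8.06% lower, or 8 higher and 10 lower in all (8 and 19 with upper-quartile factors, which moved the median by -0.16). Among markers miR-989-3p (3.75 ± 0.93, edgeR adjusted p = 0.00781) and miR-10-5p (1.43 ± 0.44, adjusted p = 0.0263) were called higher here, and their part was not tested. The comparison uses the same libraries as those above and adds no separate evidence for their values. For miR-996-3p the call was lost in 1 of 37 alternatives, with only the R-coded old libraries (-0.93, adjusted p = 0.104). For miR-279-3p it was lost, among other settings, when any of 10 libraries was left out (old body 1, 2, 3, 4, 6, 7 or 8, young body 3 or 4, or old hemolymph 4), with values of -0.71 to -0.62, and it stood at -0.25 without young libraries 1 and 2 (adjusted p = 0.401, over all alternatives 0.00313 to 0.5).

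**Figure D3:**
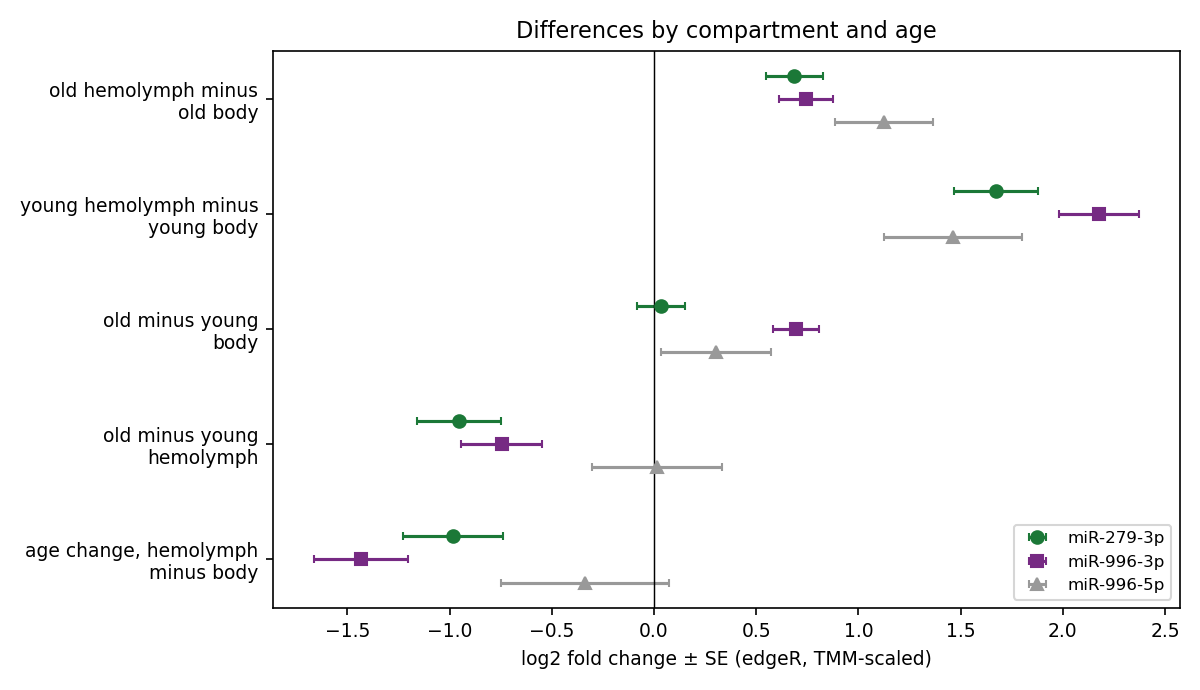
Log2 fold changes of both sisters and of the passenger arm miR-996-5p in each comparison, with the SE as error bar. Both sisters lie right of 0 for hemolymph against body and left of 0 for old against young hemolymph, and in body by age miR-996-3p lies at 0.69, miR-279-3p at 0.03 and miR-996-5p at 0.30.

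The other strand of each hairpin, which the choice of members did not use, was scarce for mir-279 and plentiful enough to test for mir-996. miR-279-5p had 13 counts in all libraries together, 1 in old hemolymph, 1 in young hemolymph, 2 in old body, and 9 in young body. Its share of both arms was 0.032% ± 0.060 in old body, against 0.287% ± 0.206 in young body (exact permutation p = 0.0364, adjusted p = 0.158). In young hemolymph that share was 0.0098% ± 0.0196 (exact permutation p = 0.143 against young body, adjusted p = 0.171). miR-996-5p was at 133 to 417 CPM in old hemolymph, 170 to 428 CPM in young hemolymph, 95.1 to 216 CPM in old body, and 58.7 to 167 CPM in young body tissue. Like its sister arm it was higher in hemolymph, by 1.13 ± 0.24 in old flies (SE, edgeR adjusted p = 0.000148) and 1.46 ± 0.34 in young flies (adjusted p = 0.000493). Between the ages it was at 0.30 ± 0.27 in body (adjusted p = 0.36) and 0.01 ± 0.32 in hemolymph (adjusted p = 0.975), neither of them called.

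The 5p arm took 9.44% ± 2.82 of the counts of mir-996 in old hemolymph, 5.95% ± 1.67 in young hemolymph, 7.43% ± 2.33 in old body and a mean of 9.46% ± 3.19 in young body. The difference between old and young hemolymph was 3.50 points (exact permutation p = 0.0525, adjusted p = 0.158 over 6 tests). That between young hemolymph and young body was -3.52 points (exact permutation p = 0.0857, adjusted p = 0.171). Old hemolymph against old body gave 2.01 points (exact permutation p = 0.141, adjusted p = 0.171) and old against young body -2.04 points (exact permutation p = 0.238, adjusted p = 0.238). None passed, and the ranges of the groups overlapped in each of these comparisons.

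miR-286-3p, the embryonic member, was near the limit of detection in most libraries. It had 0 to 7 counts in each old hemolymph library, 1 to 14 in young hemolymph, 1 to 16 in old body, and 2, 4, 131 and 9 in young body libraries 1 to 4. Old hemolymph libraries 2 and 4 had no count, which allows up to 54.4 and 54.1 CPM. The median level was 22.6 CPM in old hemolymph, 34.3 in young hemolymph, 50.2 in old body, and 29.6 in young body, and the ranges overlapped in every comparison. Its log2 fold change was -0.95 ± 0.77 for old hemolymph against old body, -1.57 ± 0.86 for young hemolymph against young body and -1.85 ± 0.85 for old against young body (SE, edgeR adjusted p = 0.247, 0.107 and 0.0877). It did not pass the count filter between the ages in hemolymph. Young body library 3 decides the last 2 values, which were 0.73 and 1.07 without it. Young hemolymph against young body was called lower in 5 of 10 other settings, at -2.09 to -3.43, and with any of 11 of 23 libraries left out. Old against young body was called lower without young libraries 1 and 2 (-2.66, edgeR adjusted p = 0.00279) and without young body library 1 or 4 (-2.23 each).

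The rest of the mir-309 cluster was scarcer still. The other 5 members had 0 to 26 counts per group, too few to be tested. miR-6-3p, known for blocking pro-apoptotic genes in the embryo, had 5 counts in old hemolymph, 13 in young hemolymph, 17 in old body, and 26 in young body, and its reads are listed under 3 hairpins of which 1 was kept. miR-5-5p had 4, 9, 11 and 10 counts in the same groups. miR-309-3p had a single count, in young body library 3. The summed cluster was at 820 CPM in that library and at most 147 CPM in any other, and the ovary sum was also highest in that library, at 80276 CPM, with 69146 CPM in young body library 4. The part of ovary or egg RNA in the level of miR-286-3p was not tested.

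The sisters were also read beside other microRNAs known from sense organs and bristles. In old flies 2 of the 6 listed were higher in hemolymph, which were the sisters, and 3 were lower, where 36.3% and 46% of all tested were called, with a list median of -0.64 against -0.45 for all tested. The lower ones were miR-7-5p (-2.33 ± 0.46), which steadies photoreceptor and sense organ fates, and the bristle microRNAs miR-263a-5p (-1.49 ± 0.33) and miR-263b-5p (-2.13 ± 0.42). In young flies 3 were higher, the third being miR-9a-5p (1.68 ± 0.44), which limits the number of sense organ precursors, and miR-7-5p and miR-263b-5p were lower (edgeR adjusted p = 0.00134 for miR-9a-5p), where 33.1% and 40.3% of all tested were called. Between the ages in hemolymph 3 of 4 tested were lower in old flies, the sisters and miR-9a-5p (-2.33 ± 0.32), and none was higher, beside 27.9% and 18.6% of all tested. In body 2 of 6 were higher in old flies, miR-996-3p and miR-263a-5p, and miR-7-5p and miR-263b-5p were lower, beside 19.1% and 29.6% of all tested. These lists are short, and nothing particular to them is read from the counts. The body call of miR-263a-5p was lost in 22 of 26 alternatives and that of miR-7-5p in 11 of 26.

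Of 7 microRNAs known from work on clocks and rest, all 7 were tested between compartments. In old flies 3 were higher in hemolymph, namely miR-279-3p, let-7-5p and miR-276a-3p, and 3 were lower, namely miR-124-3p, miR-210-3p and miR-92a-3p (list median -0.25), beside the same 36.3% and 46% of all tested. In young flies bantam-3p joined the higher ones, 4 against 3 lower (list median 0.56 against -0.26 for all tested), beside 33.1% and 40.3%. Between the ages in hemolymph 3 of 5 tested were lower in old flies, which were bantam-3p, miR-276a-3p and miR-279-3p, and none was higher, beside 27.9% and 18.6%. In body 4 of 7 were lower in old flies and miR-210-3p was higher, beside 29.6% lower and 19.1% higher of all tested, and miR-279-3p was the member nearest to no difference. The body call was lost in 14 of 26 alternatives for bantam-3p, 8 for let-7-5p and 12 for miR-124-3p, whose value was 0.55 without young libraries 1 and 2. In young flies the call of bantam-3p between compartments was lost in 16 of 36. In the comparison of age changes miR-279-3p was the single member of the 7 called, beside 14.5% of all tested (8.06% lower). Its call there was kept in 8 of 13 settings and was lost with any of 10 of 24 libraries left out.

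Over all 24 libraries the level of miR-279-3p followed that of miR-996-3p most closely among 101 microRNAs with a mean of at least 100 CPM (Pearson r = 0.90 of log2(CPM + 1)). After the sister came miR-970-3p (0.87), miR-184-5p (0.86), miR-11-3p (0.86), bantam-5p (0.85) and miR-14-5p (0.82). For miR-996-3p the closest was bantam-5p (0.92), ahead of its sister, followed by miR-970-3p (0.90), miR-11-3p (0.90), miR-986-5p (0.88) and miR-284-5p (0.88). These values describe likeness only, since the libraries fall into 4 groups and each level shares its library's total. Taken as deviations from the group means, the sisters correlated at 0.60, which was the highest of the 101 for miR-996-3p and the eighth for miR-279-3p.

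**Figure D4:**
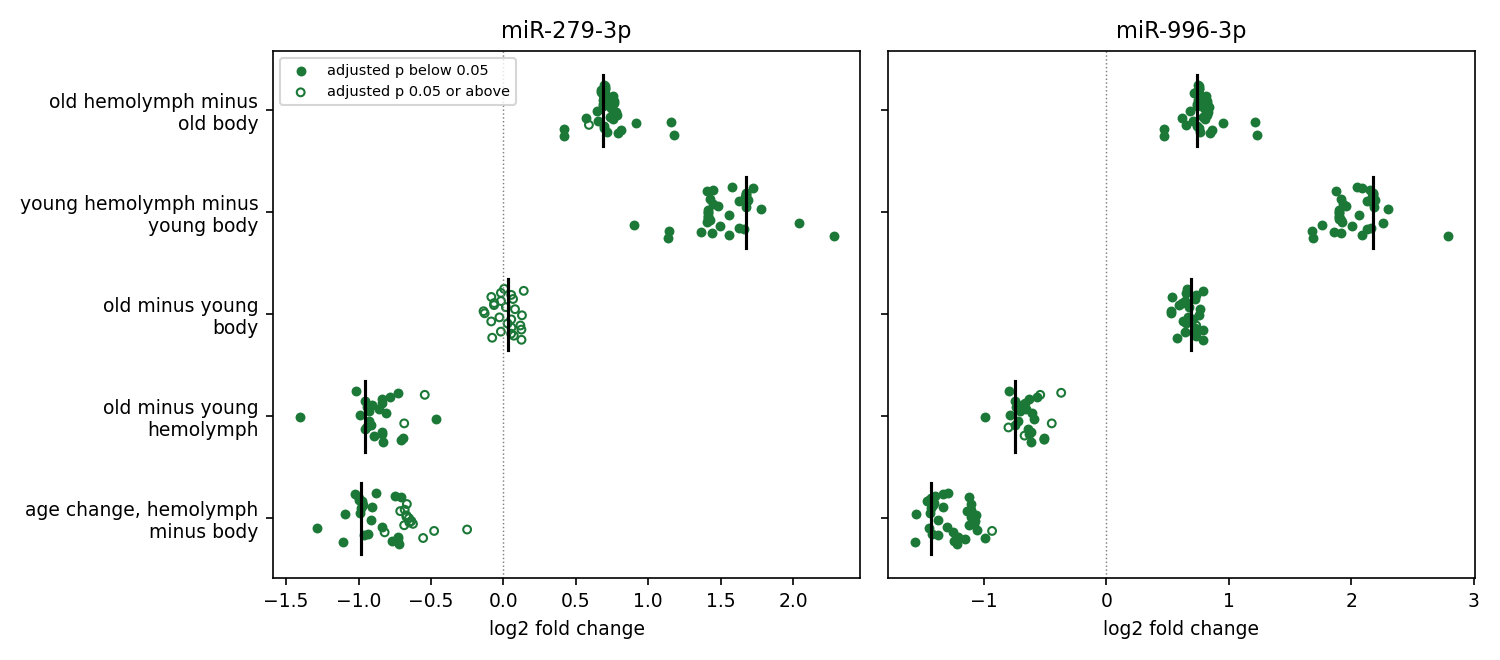
Log2 fold change of each sister in each comparison (black line) and under every alternative setting or left-out library (points, filled where the adjusted p was below 0.05 and open where it was not). All points of both sisters lie right of 0 for hemolymph against body, those of miR-996-3p lie right of 0 for body by age, and those of miR-279-3p straddle 0 there, from -0.14 to 0.14.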

How the data were processed

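The deposited table gave whole-number counts per mature microRNA and hairpin with no normalization, and RPM values. Checked on the deposited file, the RPM values differ by at most 0.005 from counts rescaled by the library total over all 476 rows. Bowtie 1.0, edgeR without a version and genome build dm6 are named, per the submitters' processing notes. How reads were trimmed, how multi-matching reads were assigned and which microRNA annotation release was used are details not given in these sources. Only counts were tested. Where a mature name had rows for more than 1 hairpin, only its row with the largest sum was used (10 of 476 rows left out). The CPM values and total counts of this report use the rows kept, so its CPM are not the deposited RPM.

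Counts were filtered with filterByExpr (minimum count 10), scaled with TMM and tested with edgeR 4.0.16 in R 4.3.3 (quasi-likelihood F test, Benjamini-Hochberg over all microRNAs tested, threshold 0.05), over 24 libraries between compartments and over 12 between ages. The SE is the absolute log2 fold change over the square root of F. TMM sets changes relative to the bulk of microRNAs, so the amount of microRNA per volume or per fly is not measured. Shares were compared by exact two-sided permutation tests of the difference in means (scipy 1.17.1). The fitting script was run on simulated data with equal numbers of raised and lowered microRNAs. That run cannot show how the values depend on scaling where the changes are not balanced.

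Members, lists, markers and alternatives were chosen with earlier results of these data known. The named microRNAs are the members, their 5p arms, the lists and tissue markers, and the 5 most like each sister. Alternatives were upper-quartile or RLE factors, scaling by library size, no filter, summed hairpins, DESeq2 1.42.0, limma 3.58.1 with sample weights, the replicate block, old libraries of 1 description code, other sets of libraries or microRNAs in the fit, and each library left out. The fit of age over all 24 libraries was added after seeing the data.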

Additional observations from a re-analysis of the deposited data

Results flagged for a closer look

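For both sisters the age change differed between the compartments in the test of the difference itself, by -0.99 for miR-279-3p and -1.43 for miR-996-3p (log2 age change in hemolymph minus in body). Of 124 microRNAs 14.5% were called there. The call of miR-996-3p was kept in 12 of 13 settings, that of miR-279-3p in 8 of 13. The value of miR-279-3p fell to -0.25 without young libraries 1 and 2, and its call was lost with any of 10 libraries left out. A single library stood apart from its group in 5 of 28 sets of group values. The rule gives about 1 in 20 by chance only for normally distributed values. A share that rests on 1 count in a group with no other is flagged whatever its size, so no excess is read from these numbers. miR-286-3p was at 663 CPM in young body library 3. The share of miR-996-3p in the pair was 36.2% in old hemolymph library 6 (95% Wilson interval 32.9% to 39.7%) and 35.5% in old body library 8 (31.9% to 39.2%). The 5p arm share of mir-279 was 0.208% in old hemolymph library 7 (0.037% to 1.17%) and 0.0392% in young hemolymph library 1 (0.0069% to 0.221%), each resting on 1 count in a group with no other.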

How the results depend on the processing

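Of 2203 alternative values, 2002 kept their direction and side of the threshold. Between compartments in old flies miR-279-3p lost its call with code O (0.59). In body by age, miR-279-3p was at -0.077 with upper-quartile factors, -0.084 with code R, -0.017 with summed hairpins, -0.027 without young libraries 1 and 2 and -0.13 without the ovary microRNAs, and the count called, 56, was 35 with limma and 28 with code O or R. In hemolymph by age, miR-279-3p was at -0.68 with code R, and miR-996-3p at -0.51 with upper-quartile factors, -0.67 with no filter and -0.45 with code R. There miR-996-5p was at -0.24 with code O, -0.19 without young libraries 1 and 2 and -0.016 without the ovary microRNAs, and 25 rather than 40 were called with code O. The compartment difference of the age change of miR-279-3p was -0.73 with no filter, -0.55 with summed hairpins, -0.82 with code O, -0.48 with code R and -0.25 without young libraries 1 and 2, and that of miR-996-3p -0.93 with code R. For miR-996-5p it was 0.023 with no filter, 0.22 with summed hairpins or code R and 0.0076 without young libraries 1 and 2. For miR-286-3p it was -0.60 with limma and -2.37 without young libraries 3 and 4, which also gave 1.47 for young hemolymph against young body and 1.49 for old against young body. The count of 18 called was 28 with RLE factors, 9 with no filter, 30 with DESeq2, 5 with code R and 29 without young libraries 1 and 2. The share of miR-996-3p in body by age was 8.23 points with code O and 9.62 with code R. miR-124-3p in body was at 0.55 without young libraries 1 and 2. Leaving out 1 library at a time gave, in body by age, -0.14 to 0.14 for miR-279-3p and -2.27 to 1.07 for miR-286-3p. In hemolymph by age it gave -1.02 to -0.54 for miR-279-3p, -0.79 to -0.37 for miR-996-3p, -0.033 to 0.60 for miR-996-5p and -0.25 to 4.68 points for the share of miR-996-3p. For the age-change difference it gave -1.09 to -0.62 for miR-279-3p, -1.64 to 1.68 for miR-286-3p and -0.41 to 0.14 for miR-996-5p, and between compartments in young flies -2.59 to 0.73 for miR-286-3p. The cause of these changes was not tested. Library counts of 52792 to 275974 limit what miR-286-3p and miR-279-5p can show.

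Equal replicate numbers did not pair the libraries of old flies. Same-numbered deviations there correlated at -0.311 to 0.132 between compartments, and 0 of 8 pairs correlated best with their own number. In young flies they correlated at 0.0367 to 0.549. Of those 4 pairs, 3 were over 0.1 and 2 correlated best with their own number, so pairing there is not settled. With the replicate block the sisters were at 1.63 and 2.16 between compartments in young flies, both still called. Between the ages, same-numbered deviations correlated at -0.103 to 0.234 in body (1 of 4 pairs over 0.1) and 0.0346 to 0.164 in hemolymph (2 of 4). Old libraries numbered above 4 have no young library of equal number, so the block by age does not draw its difference from them. With the replicate block miR-996-3p was at 0.73 in body by age (adjusted p = 0.0575), miR-279-3p at -0.94 (0.0898) and miR-996-3p at -0.80 (0.0953) in hemolymph by age, miR-996-5p there at -0.29 and the age-change difference of miR-286-3p at -0.62. The block left 5 called in body and 20 in hemolymph.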
